A study of Mus musculus with 6 samples.

Results

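The enzymes and carriers that make, store and burn fatty acids were examined in mouse HoxB8 neutrophil progenitors, cells held immature by the transcription factor Hoxb8. They were chosen by gene symbol, as the acyl-CoA synthetase, thioesterase, dehydrogenase, oxidase, carnitine palmitoyltransferase, elongase, desaturase, fatty acid binding protein, acyltransferase and perilipin families together with Acly, Acaca, Acacb, Fasn and Pecr. This gave 80 probe sets, 1 for each of 80 genes, of 22206 on the Affymetrix Mouse Clariom S array. Acsl1, Acsl3 and Scd2 were not analysed here. The symbol pattern also takes Cptp, a ceramide-1-phosphate transfer protein that is no carnitine palmitoyltransferase.

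The 2 groups carried either the wild-type form of C/EBPα (WT, 3 arrays) or the K313 form associated with acute myeloid leukaemia (K313, 3 arrays), and they were compared to learn how that form alters C/EBPα activity. All 6 samples shared the HoxB8 background and 1 day in differentiation medium with stem cell factor supernatant. The labels do not say how the C/EBPα forms were introduced, whether a group is 1 clone, or whether replicates were separate cultures, so p-values rest on a spread among arrays that may be no more than technical. Values are RMA log2 expression values, changes are K313 minus WT on that scale, and a called probe set has a limma adjusted p under 0.05 over all 22206 probe sets.

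Fatty acids are built in the cytosol from acetyl-CoA by Acly, Acaca and Fasn, then lengthened by elongases and given double bonds by desaturases. They are carried by binding proteins, joined to coenzyme A, and either esterified into glycerolipids that are kept in perilipin-coated droplets or passed through carnitine palmitoyltransferases to the acyl-CoA dehydrogenases of mitochondrial β-oxidation. Several genes of synthesis and desaturation are known targets of the sterol-regulated SREBP factors, and neutrophil differentiation is known to draw on fatty acid oxidation.

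Arrays within a group correlated at 0.994 to 0.996 over all probe sets and arrays of different groups at 0.983 to 0.989. Neutrophil progenitor markers were high in every array, with the mean level of 10 such genes between 14.14 and 14.25 in WT and between 14.59 and 14.76 in K313. Within that list 4 genes rose (the granule protease genes Elane, 3.29, Ctsg, 1.75, and Prtn3, 0.94, and Ms4a3, 0.81), beside 3.77% of all probe sets. The progenitor marker Cd34 fell by 0.93 on the log2 scale (3.97% of all probe sets fell), and 5 were short of the threshold. The part of this shift in the changes of the fatty acid genes was not tested. Cebpa read 14.53, 14.85 and 14.35 in WT and 13.85, 13.90 and 14.45 in K313, a difference of -0.51 ± 0.21 (limma adjusted p = 0.212), and whether its probe set sees both forms is not stated. Hoxb8 fell by 4.64 ± 0.25 on the log2 scale (SE, n = 3 per group, limma adjusted p = 1.15e-06), so the groups differ in Hoxb8 signal as well. Which copy of Hoxb8 its probe set sees is not stated. A difference that goes with the C/EBPα form and one that goes with Hoxb8 cannot be told apart.

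Of the 80 probe sets, 7 rose in K313, 5 fell and 68 were short of the threshold. The called share was 15.0%, against 7.75% of all probe sets (3.77% higher and 3.97% lower). Many members sat near the low end of the measured range: 31 had a mean of at most 5 in both groups. That level was set by choice as near background and not measured, and it lies close to the array medians (5.01 to 5.13). Of those 31 limma called 0 (5 had an unadjusted p under 0.05). All 12 calls fell among the other 49, as 7 rises and 5 falls. Over all probe sets, 763 of 838 rises and 845 of 882 falls lay among the 11573 above 5 in a group. An unadjusted p under 0.05 was found for 3960 of all 22206 probe sets, 3237 of them among those 11573. A member can enter that set through the group where it is high, as Pecr did. The members' median change was 0.09 and that of all probe sets 0.02, so the families did not move in 1 direction. The groups did not overlap in 27 members (33.8%, against 21.9% of all probe sets): the K313 values lay above WT in 17 (background 11.0%) and below in 10 (background 10.9%). In bulk RNA, more cells of a type and more RNA per cell cannot be told apart.

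**Figure D1:**
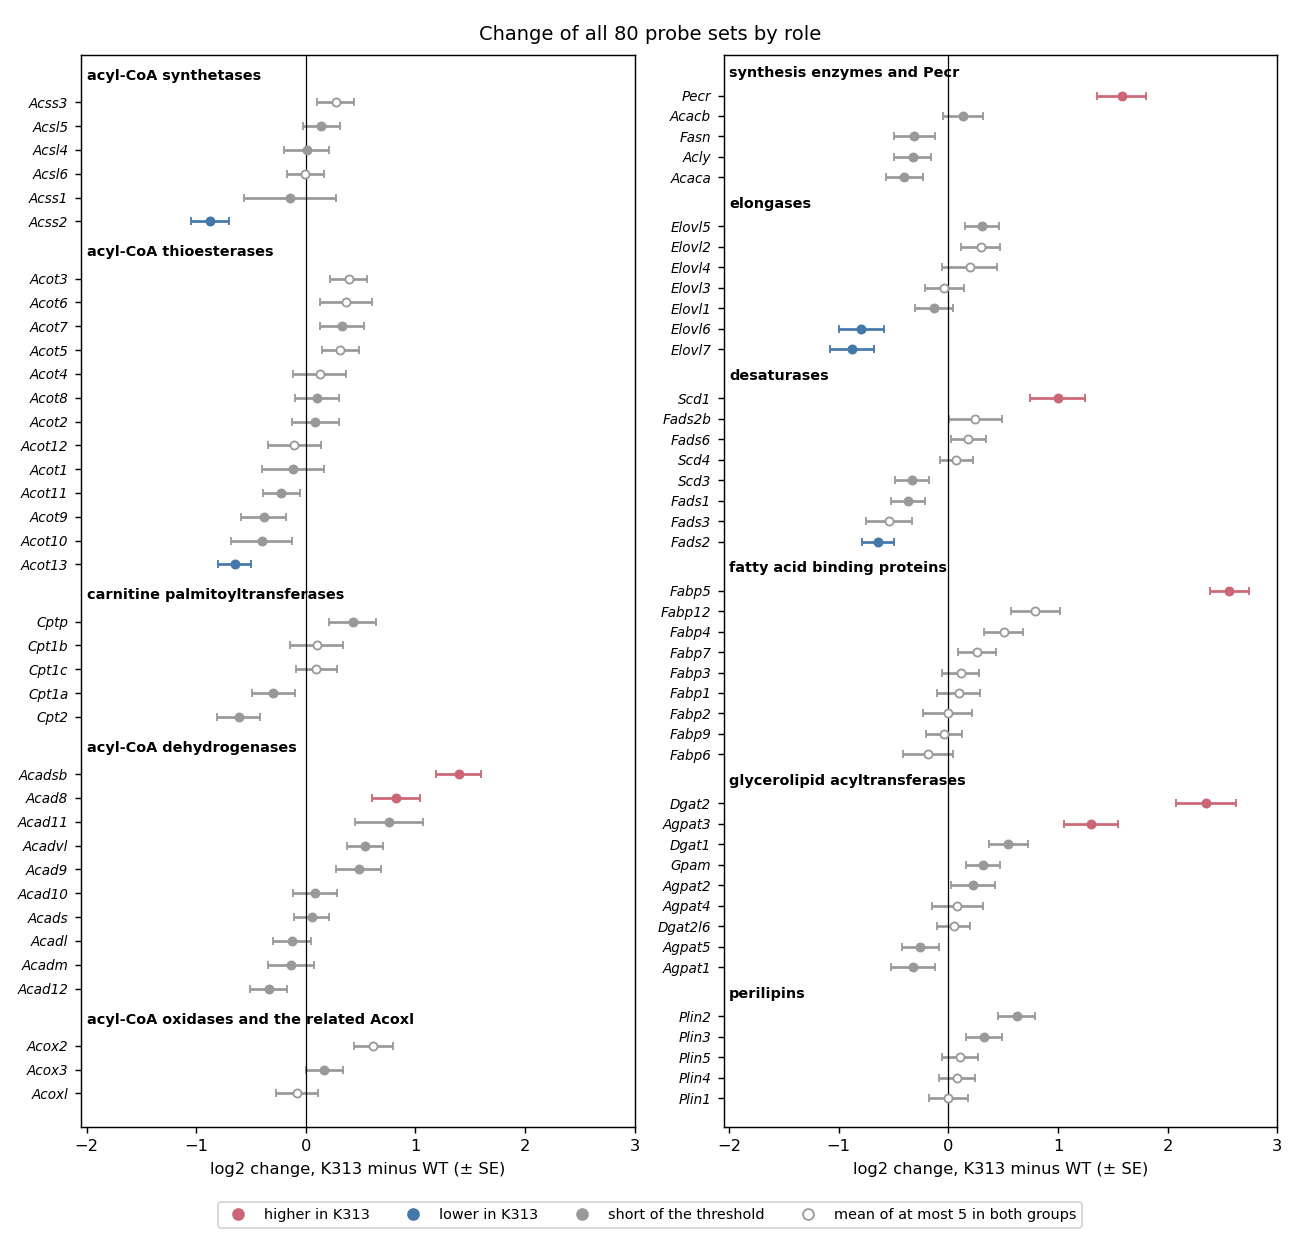
Log2 change (K313 minus WT, points) with its standard error (bars) for all 80 probe sets, grouped by role; red marks a called rise, blue a called fall, grey a probe set short of the threshold, and open circles a mean of at most 5 in both groups. Fabp5 (2.56) and Dgat2 (2.35) lie farthest to the right, and no member lies below -0.88.

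The promoters of all 8 called members that the promoter table holds are shown, because a comparison of C/EBPα forms raises the question of what lies before their starts. Pecr, Acadsb, Agpat3 and Acad8 rose, and Elovl7, Acss2, Elovl6 and Fads2 fell. Each is the 250 bases before the annotated start, 5′ to 3′ on the gene's strand, from RefSeq on GRCm38.p6. Capitals mark matches to a C/EBP-type sequence (TTGCNNAA) or to the CCAAT box (CCAAT), searched on both strands, and no match overlapped another. An SREBP-type sequence (TCACNCCAC) was searched the same way and was not in these windows.
Pecr, chr1:72284322-72284571, minus strand: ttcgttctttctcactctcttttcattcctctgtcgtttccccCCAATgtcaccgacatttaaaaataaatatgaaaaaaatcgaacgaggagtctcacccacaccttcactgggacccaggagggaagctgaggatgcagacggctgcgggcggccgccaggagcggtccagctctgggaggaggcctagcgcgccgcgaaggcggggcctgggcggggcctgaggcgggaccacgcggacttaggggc
Acadsb, chr7:131410351-131410600, plus strand: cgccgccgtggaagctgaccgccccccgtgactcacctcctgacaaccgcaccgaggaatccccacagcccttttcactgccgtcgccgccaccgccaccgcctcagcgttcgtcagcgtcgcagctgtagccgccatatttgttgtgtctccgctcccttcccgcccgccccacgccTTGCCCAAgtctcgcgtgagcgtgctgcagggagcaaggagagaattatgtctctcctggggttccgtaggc
Agpat3, chr10:78351701-78351950, minus strand: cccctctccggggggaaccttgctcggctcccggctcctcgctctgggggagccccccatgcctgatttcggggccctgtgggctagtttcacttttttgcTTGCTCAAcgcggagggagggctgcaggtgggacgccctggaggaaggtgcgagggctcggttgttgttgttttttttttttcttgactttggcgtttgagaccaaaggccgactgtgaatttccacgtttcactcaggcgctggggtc
Acad8, chr9:26999550-26999799, minus strand: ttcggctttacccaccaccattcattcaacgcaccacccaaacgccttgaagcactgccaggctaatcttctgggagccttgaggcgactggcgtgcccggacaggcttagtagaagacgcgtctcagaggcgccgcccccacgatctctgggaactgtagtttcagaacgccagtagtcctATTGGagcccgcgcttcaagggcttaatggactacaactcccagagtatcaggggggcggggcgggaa
Elovl7, chr13:108214154-108214403, plus strand: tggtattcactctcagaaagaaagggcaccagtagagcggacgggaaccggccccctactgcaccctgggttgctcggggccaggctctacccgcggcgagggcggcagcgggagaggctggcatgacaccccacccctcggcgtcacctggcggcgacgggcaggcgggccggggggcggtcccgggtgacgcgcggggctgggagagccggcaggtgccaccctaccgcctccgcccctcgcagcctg
Acss2, chr2:155517793-155518042, plus strand: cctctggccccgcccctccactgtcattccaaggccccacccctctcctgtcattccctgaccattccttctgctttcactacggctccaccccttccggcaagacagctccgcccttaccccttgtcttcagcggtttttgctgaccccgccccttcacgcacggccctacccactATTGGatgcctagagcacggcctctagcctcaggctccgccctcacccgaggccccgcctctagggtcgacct
Elovl6, chr3:129532136-129532385, plus strand: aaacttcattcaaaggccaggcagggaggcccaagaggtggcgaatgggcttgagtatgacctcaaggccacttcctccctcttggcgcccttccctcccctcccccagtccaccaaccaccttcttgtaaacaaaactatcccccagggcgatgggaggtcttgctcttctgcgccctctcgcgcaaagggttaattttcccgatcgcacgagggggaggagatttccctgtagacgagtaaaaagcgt
Fads2, chr19:10101504-10101753, minus strand: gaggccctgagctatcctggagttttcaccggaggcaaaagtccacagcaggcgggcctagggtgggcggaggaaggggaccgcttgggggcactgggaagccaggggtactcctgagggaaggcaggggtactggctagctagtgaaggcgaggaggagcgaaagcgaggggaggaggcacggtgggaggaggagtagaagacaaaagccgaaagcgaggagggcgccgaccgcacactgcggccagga

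The C/EBP-type match began at position -72 relative to the start in Acadsb and at -149 in Agpat3; the other 6 windows, those of the risen Pecr and Acad8 included, held none. The CCAAT match began at -207 in Pecr and, on the opposite strand, at -68 in Acad8 and -73 in Acss2. The C/EBP-type sequence was found in 9.56% of the 32851 mouse promoter windows, in 9 of 76 windows of the families and in 2 of the 8 windows of called members. The CCAAT box was found in 33.8% of all windows, in 37 of the 76 and in 3 of the 8. The SREBP-type sequence was found in 1.05% of all windows, in 1 of the 76 and in 0 of the 8. Of the 80 genes, 65 had an entry in the promoter table, and 8 of the 12 called ones did. A match is a description of letters in a window and not a binding site.

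Among the carriers, Fabp5, the epidermal-type fatty acid binding protein that is also found in macrophages and other myeloid cells, showed the largest rise of any member. It read 9.42, 9.34 and 9.38 in WT and 11.62, 11.99 and 12.22 in K313. The WT arrays lay close together (SD 0.04) and every K313 array was well above them. The change was 2.56 ± 0.18 (SE, n = 3 per group; limma adjusted p = 4.95e-06), a 5.91-fold difference with a 95% interval of 2.17 to 2.96 on the log2 scale. It was called under each of the 14 alternatives tried.

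The other 8 binding proteins ranged from 2.71 to 4.98 over all arrays, near the low end. Of these limma called 0, and 2 had an unadjusted p under 0.05, beside 3960 of all 22206 probe sets. Those 8 include Fabp4, the adipocyte and macrophage form, Fabp1 and Fabp2 of liver and gut, Fabp3 of heart and Fabp7 of brain. Fabp4 read 4.12, 3.89 and 4.15 in WT and 4.78, 4.29 and 4.60 in K313, with no overlap and a change of 0.50 ± 0.17 (limma adjusted p = 0.134). Fabp12 read 3.41, 2.81 and 3.59 in WT and 3.74, 4.22 and 4.23 in K313, a change of 0.79 ± 0.23 (limma adjusted p = 0.0591). Fabp12 passed with an intensity trend and robust prior (0.0391), without WT replicate 3 (0.0445) and without K313 replicate 1 (0.0462), within a range of 0.0391 to 0.329 over its alternatives. Fabp5, Fabp9, Fabp4 and Fabp12 lie in 1 cluster on chromosome 3, and Fabp9 differed by -0.04 ± 0.16. Pmp2, a further binding protein gene that lies next to Fabp5 and falls outside the symbol pattern, differed by -0.24 ± 0.18 (limma adjusted p = 0.578).

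**Figure D2:**
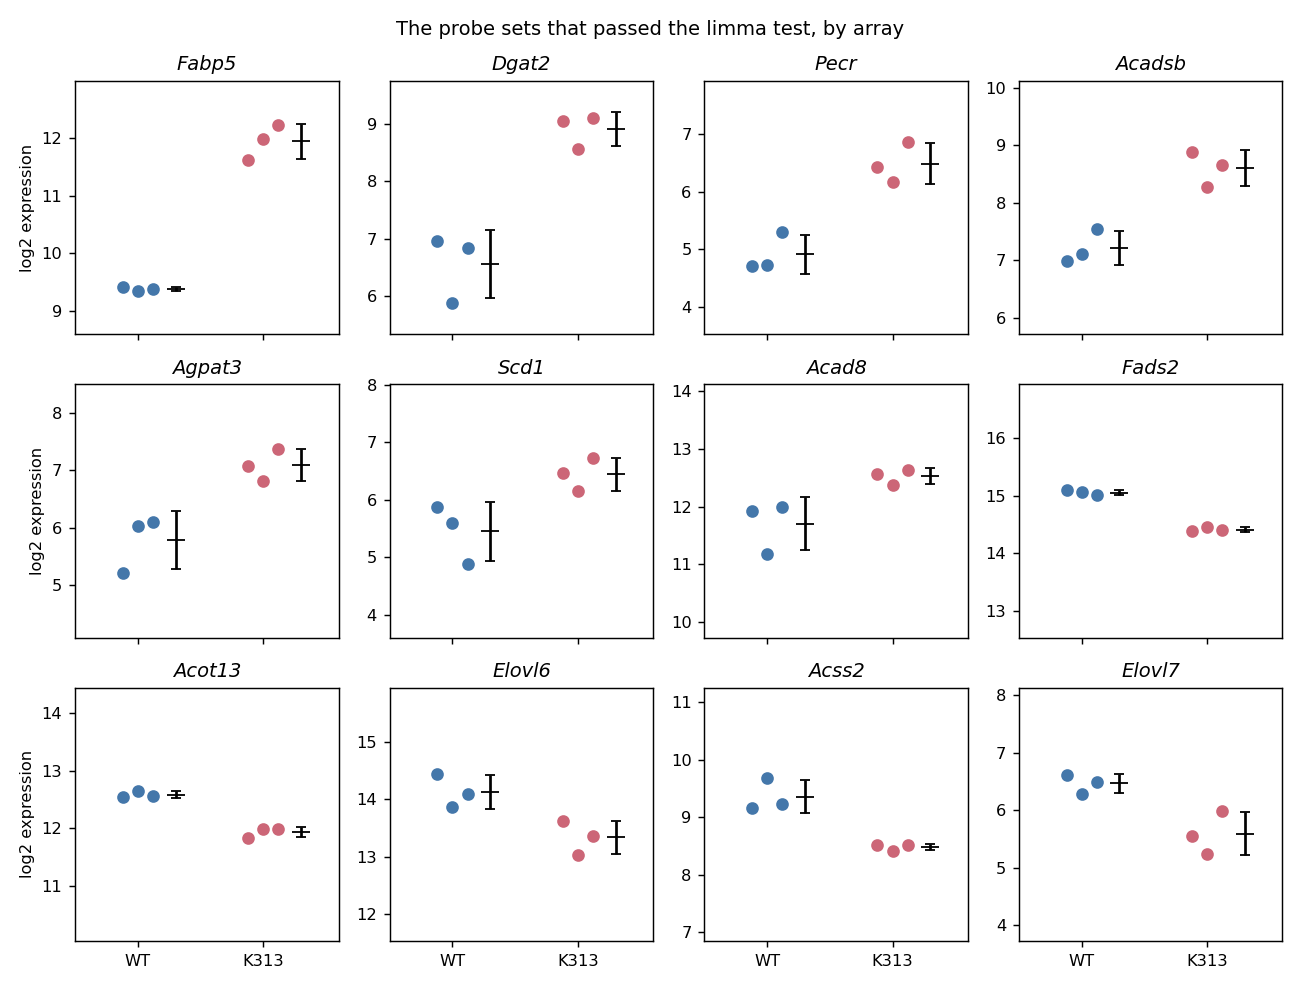
Log2 expression of the 12 called probe sets in the 3 WT arrays (blue points) and the 3 K313 arrays (red points), each panel spanning the same number of log2 units, with group means and standard deviations in black. In each panel the 2 groups do not overlap; the gap is widest for Fabp5.

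The glycerolipid acyltransferases held the second large rise. Dgat2, which joins the last fatty acid to diacylglycerol to make triglyceride, read 6.96, 5.88 and 6.83 in WT and 9.05, 8.56 and 9.10 in K313. The lowest K313 array was above the highest WT array, although WT replicate 2 lay under the other WT arrays (WT SD 0.59). The change was 2.35 ± 0.27 (SE, n = 3 per group; limma adjusted p = 0.000193), a 5.09-fold difference, and it ranged from 2.01 to 2.55 over the alternatives. Dgat1, the unrelated enzyme of the same reaction, read 7.31, 7.37 and 7.39 in WT and 7.55, 8.04 and 8.12 in K313. Its change of 0.55 ± 0.18 was short of the threshold (limma adjusted p = 0.110) and passed without K313 replicate 1 (0.72, limma adjusted p = 0.0345; 0.0345 to 0.341 over the alternatives).

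Agpat3, an acyltransferase that makes phosphatidic acid and acts on lysophospholipids with polyunsaturated chains, read 5.21, 6.04 and 6.11 in WT and 7.07, 6.82 and 7.38 in K313. It rose by 1.30 ± 0.25 (SE, n = 3 per group; limma adjusted p = 0.00656), and the groups did not overlap. Agpat1, Agpat2, Agpat4 and Agpat5, enzymes of the same step, were short of the threshold with changes between -0.32 and 0.23. Gpam, the mitochondrial glycerol-3-phosphate acyltransferase that starts the pathway, read 8.81, 9.04 and 9.08 in WT and 9.37, 9.22 and 9.28 in K313, a difference of 0.31 ± 0.15 (limma adjusted p = 0.332). Gpat4, an enzyme of that same step outside the symbol pattern, rose by 0.96 ± 0.22 without overlap (limma adjusted p = 0.0207). The Gpat4 call was lost under 4 of the 14 alternatives, within an adjusted p of 0.00814 to 0.239. The testis and skin enzyme gene Dgat2l6 was at 2.73 to 2.89 in all arrays.

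Of the perilipins, which coat lipid droplets, limma called 0 of 5. An unadjusted p under 0.05 was found for 1 of them, beside 3960 of all 22206 probe sets. Plin2, the general droplet coat protein, read 11.83, 11.47 and 11.76 in WT and 12.10, 12.44 and 12.39 in K313. All K313 arrays were above all WT arrays, with a change of 0.62 ± 0.17 (SE, n = 3 per group) and a limma adjusted p of 0.0503, just short of the threshold. Plin2 passed under 5 of the 14 alternatives, with adjusted p between 0.0379 and 0.0454 there and up to 0.188 in the others. Plin3, the exchangeable coat protein, differed by 0.32 ± 0.17 (limma adjusted p = 0.356). Plin1, Plin4 and Plin5, the forms of fat, muscle and heart, ranged from 2.52 to 4.47 over all arrays.

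Of the enzymes that supply acetyl-CoA and build palmitate, only Acss2 was called; Acly, Acaca and Fasn were short of the threshold. Acss2, an acyl-CoA synthetase that makes cytosolic and nuclear acetyl-CoA from acetate, read 9.16, 9.68 and 9.23 in WT and 8.52, 8.42 and 8.51 in K313. It fell by 0.87 ± 0.18 on the log2 scale (SE, n = 3 per group; limma adjusted p = 0.00931), a 1.83-fold difference without overlap. Acly, which makes acetyl-CoA from citrate, differed by -0.33 ± 0.17 (limma adjusted p = 0.354). Acaca, the acetyl-CoA carboxylase of synthesis, differed by -0.40 ± 0.17 (0.231), and the fatty acid synthase Fasn by -0.31 ± 0.19 (0.461). Acaca and Acly lay below WT in all K313 arrays and Fasn overlapped. Acacb, the carboxylase isoform that restrains fatty acid oxidation, differed by 0.13 ± 0.18.

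Elovl6, the elongase that lengthens palmitate to stearate, read 14.44, 13.86 and 14.10 in WT and 13.62, 13.04 and 13.36 in K313. It fell by 0.79 ± 0.20 on the log2 scale (SE, n = 3 per group; limma adjusted p = 0.0364). The call was lost without WT replicate 1 (-0.64, limma adjusted p = 0.127), WT replicate 3 (-0.81, 0.0889), K313 replicate 2 (-0.64, 0.159) and K313 replicate 3 (-0.80, 0.105), within a range of 0.0138 to 0.254 over all alternatives. Elovl7, an elongase of long saturated chains, read 6.62, 6.29 and 6.50 in WT and 5.56, 5.24 and 5.98 in K313 and fell by 0.88 ± 0.20 on the log2 scale (limma adjusted p = 0.0212). Its call was lost without WT replicate 1 (-0.80, limma adjusted p = 0.0763), WT replicate 3 (-0.86, 0.0686), K313 replicate 1 (-0.86, 0.0703) and K313 replicate 2 (-0.70, 0.0967), within 0.00874 to 0.212 over all alternatives. Ordinary variance also ended both calls (adjusted p = 0.254 for Elovl6 and 0.212 for Elovl7). Elovl5, which lengthens polyunsaturated chains, was higher in every K313 array (15.62, 15.38 and 15.57 against 15.25, 15.11 and 15.29) at a change of 0.31 ± 0.15 that was short of the threshold (limma adjusted p = 0.342). Elovl1, the elongase of very long saturated chains, differed by -0.13 ± 0.17, and Elovl2, Elovl3 and Elovl4 were at most 4.06 in any array.

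The desaturases went both ways. Fads2, the delta-6 desaturase that starts polyunsaturated fatty acid synthesis, read 15.10, 15.06 and 15.01 in WT and 14.38, 14.46 and 14.40 in K313. The arrays of each group lay close together, and Fads2 fell by 0.64 ± 0.14 on the log2 scale (SE, n = 3 per group; limma adjusted p = 0.0185). The size kept to -0.72 to -0.62, but the call was lost without WT replicate 1 (-0.62, limma adjusted p = 0.0576), K313 replicate 1 (-0.63, 0.0637), K313 replicate 2 (-0.67, 0.0585) and K313 replicate 3 (-0.64, 0.0605); over all alternatives the adjusted p was 0.00276 to 0.0637. Its neighbour on chromosome 19, the delta-5 desaturase Fads1, read 12.66, 12.29 and 12.51 in WT and 12.11, 12.11 and 12.13 in K313, a difference of -0.37 ± 0.16 without overlap (limma adjusted p = 0.242). Fads3, the third gene of that cluster, was at most 4.92 in any array and differed by -0.54 ± 0.21 (0.185).

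Scd1, the stearoyl-CoA desaturase that makes oleate, moved the other way from a low level. It read 5.88, 5.59 and 4.88 in WT and 6.47, 6.15 and 6.72 in K313 and rose by 1.00 ± 0.25 (SE, n = 3 per group; limma adjusted p = 0.0335). The call was lost without WT replicate 2 (1.07, limma adjusted p = 0.0572), WT replicate 3 (0.71, 0.0962), K313 replicate 1 (0.99, 0.0961) and K313 replicate 3 (0.86, 0.147), within 0.0155 to 0.306 over all alternatives. Ordinary variance (adjusted p = 0.306) and a replicate block also ended the call. Scd3, of the same chromosome 19 cluster, read 5.28, 5.42 and 5.26 in WT and 5.17, 4.94 and 4.86 in K313, a difference of -0.33 ± 0.16 (0.311), and Scd4 stayed between 3.08 and 3.30. The Scd genes are close copies, so their probe sets may share signal.

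**Figure D3:**
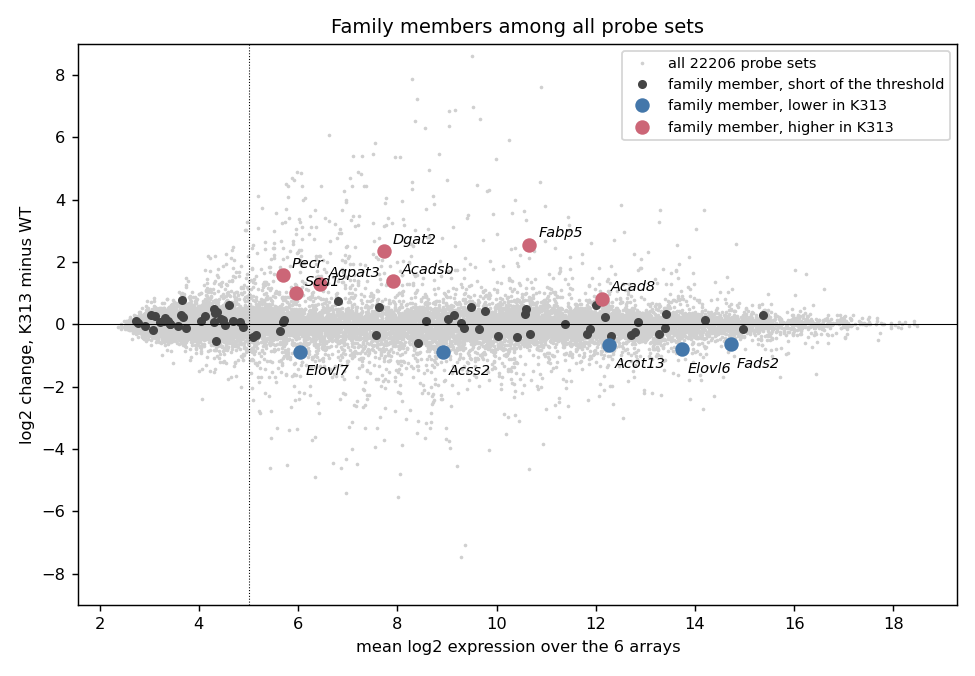
Mean log2 expression over the 6 arrays (horizontal axis) against the log2 change (vertical axis) for all 22206 probe sets (light grey), with family members short of the threshold in dark grey and called members in red (higher) or blue (lower). The dotted line marks a level of 5; the called members lie above it, and the 31 members at most 5 in both groups hold none.

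Among the acyl-CoA dehydrogenases, which take the first step of β-oxidation or of branched amino acid breakdown, 2 of 10 rose and 0 fell. Of all probe sets 3.77% rose and 3.97% fell. Acadsb, the short and branched chain enzyme of isoleucine breakdown, read 6.98, 7.11 and 7.54 in WT and 8.89, 8.27 and 8.65 in K313. It rose by 1.39 ± 0.21 (SE, n = 3 per group; limma adjusted p = 0.00128), a 2.63-fold difference without overlap. Acad8, isobutyryl-CoA dehydrogenase of valine breakdown, read 11.93, 11.18 and 12 in WT and 12.57, 12.38 and 12.64 in K313 and rose by 0.83 ± 0.22 (limma adjusted p = 0.0436). Its call was lost without WT replicate 2 (0.57, limma adjusted p = 0.0958), K313 replicate 1 (0.81, 0.120), K313 replicate 2 (0.90, 0.0842) and K313 replicate 3 (0.77, 0.156), with a common array median (0.75, 0.0757) and with array weights (0.74, 0.0527), within 0.0256 to 0.295 over all alternatives. Ordinary variance also ended the Acad8 call (adjusted p = 0.295). Both called enzymes are thus known for branched chain amino acids rather than for straight fatty acids.

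The dehydrogenases of straight chains were short of the threshold. Acadvl, the very long chain enzyme, read 9.12, 9.25 and 9.25 in WT and 9.52, 9.94 and 9.79 in K313, without overlap and with a change of 0.54 ± 0.16 (limma adjusted p = 0.0768). The long chain enzyme Acadl differed by -0.13 ± 0.17, the medium chain enzyme Acadm by -0.13 ± 0.21 and the short chain enzyme Acads by 0.05 ± 0.16. Acad9, also an assembly factor of respiratory complex I, differed by 0.48 ± 0.20 (limma adjusted p = 0.238). Acad11, of long and very long chains, read 5.85, 6.17 and 7.26 in WT and 7.47, 6.90 and 7.19 in K313. Its change of 0.76 ± 0.31 (limma adjusted p = 0.224) became 1.18 and passed without WT replicate 3 (0.00877; 0.00877 to 0.556 over the alternatives). Acad10 and Acad12 differed by 0.08 and -0.34.

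Of the 4 carnitine palmitoyltransferases, which bring fatty acids into mitochondria, limma called 0. An unadjusted p under 0.05 was found for 1 of them, beside 3960 of all 22206 probe sets. Cpt1a, the outer membrane transferase that limits the rate of β-oxidation, read 11.11, 10.40 and 10.98 in WT and 10.54, 10.47 and 10.59 in K313, overlapping, with a difference of -0.30 ± 0.20 (limma adjusted p = 0.510; 95% interval -0.73 to 0.14). Cpt2, the inner membrane enzyme, read 9.02, 8.41 and 8.77 in WT and 8.15, 7.91 and 8.30 in K313, below WT in all arrays, with a difference of -0.61 ± 0.19 (limma adjusted p = 0.0904). Cpt2 passed without WT replicate 2 (-0.78, limma adjusted p = 0.0368; 0.0368 to 0.308 over the alternatives). Cpt1b and Cpt1c, the muscle and brain forms, were at most 5.04 in any array. Cptp, which is not of that family, differed by 0.43 ± 0.22.

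Pecr rose from a low level; it encodes the peroxisomal trans-2-enoyl-CoA reductase of chain elongation. It read 4.71, 4.72 and 5.29 in WT, near background, and 6.42, 6.17 and 6.87 in K313. It rose by 1.58 ± 0.22 (SE, n = 3 per group; limma adjusted p = 0.00085), and its 2.99-fold size is a compressed estimate near the low end, where the WT mean was at most 5. Acox2, the peroxisomal oxidase of branched chains and bile acid precursors, read 4.25, 4.37 and 4.27 in WT and 5.22, 4.85 and 4.67 in K313. That is a change of 0.62 ± 0.18 near the low end (limma adjusted p = 0.0595), which passed with array weights (0.0473) and without K313 replicate 3 (0.0499), within 0.0473 to 0.213 over the alternatives. Of these 3 oxidase probe sets limma called 0, and 1 had an unadjusted p under 0.05, beside 3960 of all 22206 probe sets. Acox3 differed by 0.17 ± 0.17 and Acoxl by -0.08 ± 0.19.

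Acyl-CoA synthetases of long chains, which activate fatty acids for use, did not pass. Acsl4, which favours arachidonate, differed by 0.01 ± 0.20 (95% interval -0.44 to 0.45) and Acsl5 by 0.14 ± 0.17 (-0.22 to 0.51). The mitochondrial acetate enzyme Acss1 read 10.77, 12.19 and 12.88 in WT and 12.13, 11.47 and 11.82 in K313. Its WT spread (SD 1.08) leaves a wide interval of -1.07 to 0.79. Acss3 and Acsl6 were at most 4.39 in any array.

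Of 13 acyl-CoA thioesterases, which release fatty acids from coenzyme A, 1 fell, beside 3.97% of all probe sets. Acot13, a mitochondrial thioesterase of long chains, read 12.55, 12.65 and 12.57 in WT and 11.84, 11.99 and 11.99 in K313 and fell by 0.65 ± 0.15 on the log2 scale (SE, n = 3 per group; limma adjusted p = 0.0194). The size kept to -0.73 to -0.60, but the call was lost without WT replicate 2 (-0.62, limma adjusted p = 0.0571), WT replicate 3 (-0.66, 0.0555), K313 replicate 1 (-0.60, 0.0756), K313 replicate 2 (-0.68, 0.0600) and K313 replicate 3 (-0.68, 0.0505), within 0.00934 to 0.0756 over all alternatives. Acot7, the cytosolic arachidonoyl-CoA thioesterase, differed by 0.33 ± 0.20 and the mitochondrial Acot9 by -0.38 ± 0.21. Acot1 to Acot6, close copies in 1 cluster on chromosome 12 whose probe sets may share signal, differed by -0.12 to 0.39, and 4 of these 6 were at most 5 in both groups. Acot8 differed by 0.10, and Acot10, Acot11 and Acot12 by -0.40, -0.22 and -0.10.

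Partner genes of the same pathways were set out in 5 lists of 132 symbols, of which 121 were measured. Of these 121 genes 10 rose, 8 fell and 103 were short of the threshold, and their median change was 0.00. Over all probe sets 7.75% were called, 3.77% higher and 3.97% lower. The 29 partners of β-oxidation included 2 rises, the peroxisomal fatty acid transporter Abcd2 (1.81 ± 0.24) and the mitochondrial dienoyl-CoA reductase Decr1 (1.13 ± 0.19), and 3 falls. Those were the peroxisomal α-oxidation enzymes Hacl1 (-0.87 ± 0.17) and Phyh (-1.07 ± 0.27) and the carrier and thiolase Scp2 (-0.65 ± 0.17). The limma adjusted p of these 5 genes lay between 0.000615 and 0.037. Phyh was lost without WT replicate 1 (limma adjusted p = 0.111), WT replicate 3 (0.121), K313 replicate 1 (0.0896) and K313 replicate 2 (0.118), with changes of -1.09 to -0.75, and Scp2 without WT replicate 2 (-0.64, 0.0872), WT replicate 3 (-0.56, 0.136), K313 replicate 2 (-0.59, 0.149) and K313 replicate 3 (-0.62, 0.121). Both were also lost with ordinary variance, and Scp2 with a replicate block. Over all alternatives the adjusted p was 0.0088 to 0.327 for Phyh and 0.0243 to 0.149 for Scp2.

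Of 34 genes of glycerolipid synthesis, lipolysis and droplet formation, 3 rose and 4 fell, beside 3.77% higher and 3.97% lower of all probe sets. Bscl2, which encodes seipin, a protein of droplet assembly at the endoplasmic reticulum, read 7.86, 7.69 and 8.14 in WT and 10.50, 9.87 and 10.88 in K313. It rose by 2.52 ± 0.24 (SE, n = 3 per group, limma adjusted p = 4.72e-05), and ordinary variance alone ended the call (adjusted p = 0.0563). The monoacylglycerol acyltransferase Mogat2 rose by 1.02 ± 0.20 (limma adjusted p = 0.00903), and the fall of the droplet dehydrogenase Hsd17b11 was the largest, at -1.90 ± 0.18 (3.97e-05). The lysophospholipid acyltransferase Lpcat2 fell by 0.85 ± 0.17 (0.0091). Its call was lost without K313 replicate 2 (-0.76, 0.0520) and with ordinary variance (0.102), within 0.00186 to 0.102 over the alternatives. Among 17 partners of synthesis and elongation, Hacd2, the dehydratase of the elongation cycle, fell by 1.01 ± 0.16 (0.00197). Mid1ip1, an activator of acetyl-CoA carboxylase, rose by 1.08 ± 0.22 (0.0112). Its call was lost without K313 replicate 3 (1.00, 0.0581) and with ordinary variance (0.204), within 0.00689 to 0.204 over the alternatives.

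Of 20 uptake and sensing genes, 4 rose and 0 fell, beside 3.77% higher and 3.97% lower of all probe sets. Ffar2, the receptor for short chain fatty acids on neutrophils, read 6.86, 6.90 and 8.26 in WT and 12.69, 12.57 and 12.71 in K313 and rose by 5.32 ± 0.32 (SE, n = 3 per group; limma adjusted p = 2e-06). The long chain receptor Ffar4 rose by 1.93 ± 0.15 (7.93e-06) from a WT mean near background, and the fatty acid transport protein gene Slc27a3 by 1.39 ± 0.18 (0.000393). Slc27a1, of the same transporter family, rose by 1.32 ± 0.21 (0.0018), likewise from a WT mean near background (4.48). Of 21 transcription regulators of lipid genes limma called 0. An unadjusted p under 0.05 was found for 5 of them, beside 3960 of all 22206 probe sets. Srebf2, the regulator of sterol synthesis genes, read 15.02, 15.01 and 14.85 in WT and 14.39, 14.40 and 14.50 in K313, a difference of -0.53 ± 0.15 without overlap that was just short of the threshold (limma adjusted p = 0.0560) and passed with a common array median (0.029) and with an intensity trend and robust prior (0.0143), within 0.0143 to 0.174 over the alternatives. Pparg and Ppara, receptors for fatty acids, differed by 0.03 ± 0.16 and 0.08 ± 0.22 at levels under 5. Srebf1 and Ppard were not analysed here.

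**Figure D4:**
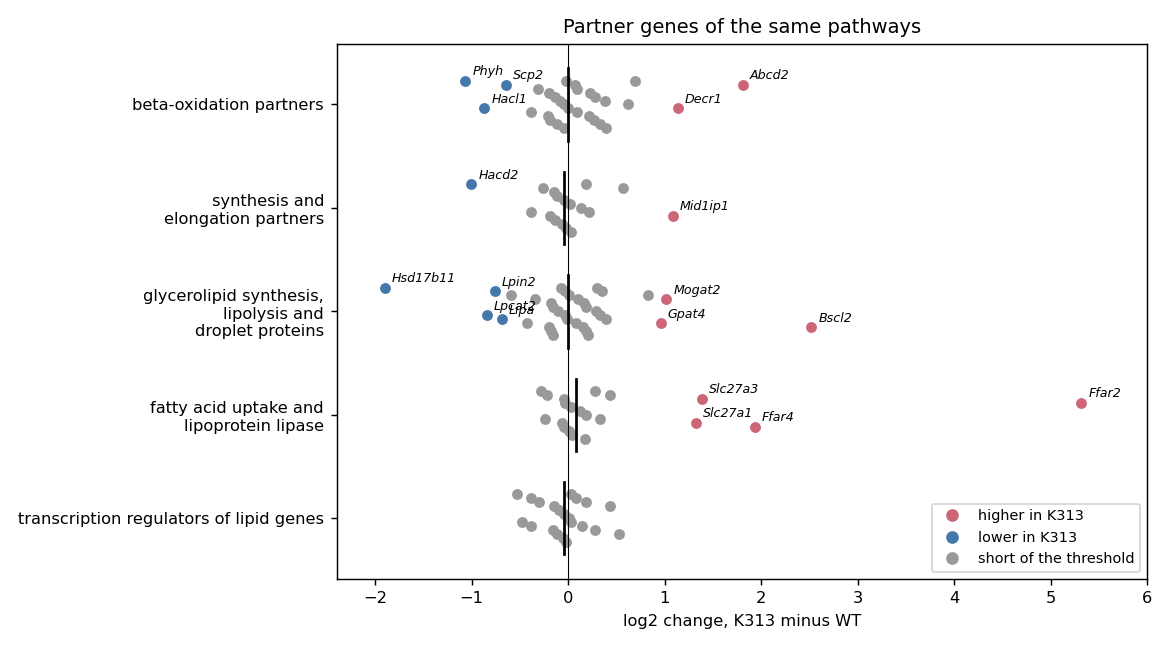
Log2 change (K313 minus WT) of each measured gene of the 5 partner lists, 1 point per gene, red for a called rise, blue for a called fall and grey for a gene short of the threshold; black bars mark list medians, between -0.05 and 0.08, and the vertical spread of points within a list carries no value. Ffar2 (5.32) and Bscl2 (2.52) lie farthest right and Hsd17b11 (-1.90) farthest left.

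Markers of other blood cells moved with the groups. Over all probe sets 3.77% rose and 3.97% fell. Of 10 basophil and mast cell genes, 5 fell and 1 rose, with the mean list level at 10.29 to 10.81 in the WT arrays and 10.00 to 10.21 in the K313 arrays. Of 6 eosinophil genes, 4 fell (10.21 to 10.75 against 9.07 to 9.55). Of 8 erythroid and megakaryocyte genes, 4 fell (7.74 to 7.95 against 6.39 to 6.78). Of 9 macrophage and monocyte genes, 3 rose and 1 fell (6.31 to 6.70 against 7.07 to 7.35), with Cd14, Ly6c2 and Ccr2 higher and Adgre1 lower. In that list Adgre1 read 8.14 to 9.35 and Apoe 6.04 to 6.67 over the 6 arrays, Csf1r 4.77 to 6.15, and Mrc1, Mertk and C1qa 2.98 to 5.15. The part of these shifts in the changes of the fatty acid genes was not tested. Of 7 adipocyte genes limma called 0, 0 had an unadjusted p under 0.05, and the mean list level was 4.05 to 4.28 in WT and 4.05 to 4.31 in K313; the adipocyte hormone gene Adipoq read 2.74 to 3.16, near the low end.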

How the data were processed

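Total RNA of 6 samples was hybridized to Mouse Clariom S arrays, 3 per group. The authors deposited log2 values made with RMA and the Transcriptome Analysis Console, per the submitters' processing notes; versions and the array's build are not given in the sources used here. RMA brings arrays to a common distribution, hides changes in total RNA and compresses folds near the low end. Symbols came from the platform annotation (19572 probe sets with 1 symbol, 2634 with none, 0 with several).

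limma 3.58.1 (R 4.3.3) was run two-sided over the 22206 probe sets (lmFit on group, then eBayes with its default prior), and p-values were adjusted by Benjamini-Hochberg; the test was checked on simulated data. The number of arrays limits the precision: the members' median standard error was 0.18. Given in full are called members. Partner genes are up to 4 called per list with the smallest p, and Gpat4, Scp2 and Lipa were named beyond these. Other names, such as members short of the threshold and Srebf2, were picked after their values were seen. Members and lists were chosen with earlier results of these data known. Alternatives were quantile normalization, a common median, a filter that drops the dimmest 30% of probe sets, an intensity trend with robust prior, ordinary variance, array weights, 1-symbol probe sets, a replicate block, each array left out, and a 1.5-fold minimum.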

Additional observations from a re-analysis of the deposited data

How the results depend on the processing

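0 of the 12 called members changed direction under the 14 alternatives, and Fabp5 alone was called under all of them. For Dgat2, Pecr, Acadsb, Agpat3 and Acss2 ordinary variance alone ended the call (adjusted p = 0.0884, 0.105, 0.105, 0.194 and 0.119). With ordinary variance the calls over all probe sets went from 838 higher and 882 lower to 247 and 249. Among members 1 rose (Fabp5) and 2 fell (Fads2 and Acot13). Likewise 2 partner genes rose (Ffar2 and Ffar4) and 2 fell (Hacd2 and Hsd17b11), and every other call of members and partners was lost. Leaving out 1 array gave 5 to 8 members higher and 1 to 5 lower: 1 without K313 replicate 2, and 2 each without K313 replicate 1 or 3 and without WT replicate 1 or 3. The partner lists, for which the alternatives were chosen after seeing the data, then gave 8 to 10 higher and 3 to 6 lower, with 5 lower without WT replicate 3 or K313 replicate 3 and 3 without K313 replicate 2. Such fits have fewer samples, and over all probe sets they called 1228 to 1465, against 1720 in the main fit. Replicate numbers did not pair the arrays: deviations of same-numbered arrays correlated at -0.0607, 0.0291 and -0.0617, and 0 of 6 arrays correlated best with their own number. With the replicate block 777 of all probe sets rose and 769 fell. Among members 6 rose and 5 fell, and Scd1 missed the threshold (adjusted p = 0.0519). The partners Scp2 (0.0795) and Lipa (0.0715) missed it too, while Abhd6 passed (0.0392). In the main fit Lipa differed by -0.69 ± 0.18 (limma adjusted p = 0.0443) and Abhd6 by 0.83 ± 0.23 (0.0538). The Lipa call was lost under 9 of the 14 alternatives, and Abhd6 passed under 3. A common median moved the median change of all probe sets from 0.02 to -0.06, and the split of all calls from 838 higher and 882 lower to 727 and 1064. All 12 called members changed at least 1.5-fold, as did 1708 of the 1720 calls over all probe sets.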

Other observations

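The genes next to the 12 called members were read from the RefSeq gene order of GRCm38.p6, a choice made after the members' values were seen. Of the 24 nearest measured genes on either side, 3 rose and 0 fell (12.5%, against 7.75% of all probe sets). Mogat2, which lies beside Dgat2 and encodes an enzyme one step earlier in triglyceride synthesis, went from 5.03 ± 0.19 (SD, n = 3) in WT to 6.05 ± 0.36 in K313. Trappc10, a vesicle tethering subunit beside Agpat3, went from 8.33 ± 0.29 to 9.83 ± 0.13 (SE of the change 0.18; limma adjusted p = 0.000253). Mreg, the melanosome transport gene melanoregulin beside Pecr, went from 4.17 ± 0.22 to 5.79 ± 0.42, a change of 1.62 ± 0.22 (0.000634) from a level near background. The neighbours of Fabp5, Pag1 and Pmp2, differed by -0.21 ± 0.15 and -0.24 ± 0.18 and were not called.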
